A study of Homo sapiens with 12 samples.

Results

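PMAIP1, BCL2 and SESN2 were followed across 3 lines derived from BT-549, an established human triple-negative breast cancer line of mesenchymal-like type. The genes were chosen by their levels on these same arrays, so their own changes are given as a description with no test. The rule took every transcript cluster (the array's unit of measurement, a set of probes for 1 transcript) whose platform symbol was 1 of these names, and it found 3 transcript clusters, 1 for each gene, of 53617 on the array and of 16098 that carried 1 gene symbol. Total RNA of each line was measured on 4 Affymetrix arrays of the Human Gene 2.0 ST design, or 12 in all. BT-EV was the control line, which the labels describe as carrying a control shRNA and the study as carrying empty vector. BT-A6sh5 and BT-A6sh2 were stably transfected with distinct shRNAs against ANXA6, which encodes annexin A6, a scaffold protein that binds membranes when calcium rises. Each line is a stably transfected subclone, so what the shRNA does and what is particular to that line cannot be told apart. No drug or other treatment was added. The submitters' titles call the 4 arrays of a line biological replicas and the study calls them technical replicates, so the spread given here may be technical.

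PMAIP1 encodes NOXA, a BH3-only protein that binds and neutralizes the anti-apoptotic protein MCL1. BCL2 encodes the founding anti-apoptotic member of the same family, which holds the effectors BAX and BAK1 in check at the outer mitochondrial membrane. SESN2 encodes sestrin 2, a stress-induced protein that binds the GATOR2 complex, senses leucine and restrains the growth kinase complex mTORC1. PMAIP1 and SESN2 are textbook targets of the tumor suppressor p53 and are also induced by the transcription factor ATF4 in the integrated stress response.

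PMAIP1 and BCL2 both lie on chromosome 18, with 4 measured genes between them in gene order, and SESN2 lies on chromosome 1 (GRCh38.p14 gene table, used for order and names). The promoters of PMAIP1 and SESN2 are shown because both genes are described as sharing regulators. The 250 bases before each start site are given 5′ to 3′ on the coding strand from RefSeq (GRCh38.p14, plus strand, chr18:59899746-59899995 and chr1:28259268-28259517), with motif matches on either strand in capitals.
PMAIP1: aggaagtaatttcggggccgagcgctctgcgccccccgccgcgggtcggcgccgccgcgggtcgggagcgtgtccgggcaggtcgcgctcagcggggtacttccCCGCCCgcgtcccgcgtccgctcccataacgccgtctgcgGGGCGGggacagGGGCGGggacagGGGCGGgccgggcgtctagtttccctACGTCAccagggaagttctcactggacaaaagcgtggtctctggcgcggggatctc
SESN2: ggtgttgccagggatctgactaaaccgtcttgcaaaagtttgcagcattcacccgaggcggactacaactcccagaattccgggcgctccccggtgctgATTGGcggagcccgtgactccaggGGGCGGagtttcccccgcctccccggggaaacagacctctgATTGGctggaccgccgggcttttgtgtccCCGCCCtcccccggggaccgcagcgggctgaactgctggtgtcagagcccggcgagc
The capitals mark the GC box (GGGCGG) and the core of the cyclic AMP response element (ACGTCA) in PMAIP1, and the GC box and the CCAAT box (CCAAT) in SESN2. The PMAIP1 window held 4 GC boxes and SESN2 held 2, and 45.0% of 35116 promoter windows of the same length (300 bases) held at least 1. SESN2 held 2 CCAAT boxes, a motif of 34.6% of all windows, and PMAIP1 held none. PMAIP1 held 1 ACGTCA, present in 7.98% of windows. The BCL2 window, which lies within the span of the gene in the annotation and is not printed, held 0 of these 3 motifs. The TATA box (TATAAA, 11.5% of windows), the full cyclic AMP response element (TGACGTCA, 1.85%, which contains ACGTCA), the composite of ATF4 and C/EBP (TTGCATCA, 0.866%) and the p53 decamer motif (6.63%) had 0 matches in all 3 windows. These are matches of letters in a short window and say nothing of binding.

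The targeted gene, ANXA6, fell in both lines. BT-A6sh5 kept 16.2% ± 1.08 (SD, n = 4) of the BT-EV level and BT-A6sh2 kept 51.7% ± 3.87, and the levels of the lines did not overlap (limma, adjusted p = 2.21e-09 and 0.000158). For replicate 1 of BT-A6sh2 one label gives the shRNA of BT-A6sh5, but its title and transfectant give that of BT-A6sh2, where it was kept. Its ANXA6 level of 10.57 lay beside the 10.32, 10.50 and 10.41 of the other BT-A6sh2 arrays. In BT-EV, VIM and FN1, mesenchymal markers, had log2 levels of 10.6 and 12.4, and EPCAM (epithelial) and PGR (the progesterone receptor) had 3.47 and 3.96. The other measured markers did not separate in this way. Mesenchymal ZEB1 and TWIST1 had 7.65 and 6.38, and epithelial KRT18, KRT8 and CLDN4 had 7.10, 6.21 and 5.56. ESR1 (the estrogen receptor) had 5.03 and PECAM1, of endothelial cells or leukocytes, had 4.30. The hybridization controls, transcripts added to each sample in equal amount, had mean log2 levels of 8.10 to 8.29 in BT-EV, 8.50 to 8.92 in BT-A6sh5 and 8.66 to 9.05 in BT-A6sh2, so they moved with the lines. Replicates 1 and 3 of BT-A6sh2 stood apart, since their levels spread less over the array (SD 2.18 and 2.19) than those of the other arrays (SD 2.26 to 2.33).

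PMAIP1 was high in BT-A6sh5 only. Its log2 levels were 4.31, 4.69, 4.14 and 3.96 in BT-EV, 7.41, 7.54, 7.09 and 7.12 in BT-A6sh5, and 4.11, 4.08, 3.96 and 4.66 in BT-A6sh2. All 4 BT-A6sh5 arrays lay above all others, the nearest by 2.40 on the log2 scale, and the BT-EV and BT-A6sh2 arrays overlapped. The mean was 7.29 ± 0.22 (SD, n = 4) in BT-A6sh5, 4.27 ± 0.31 in BT-EV and 4.20 ± 0.31 in BT-A6sh2. This is a log2 fold change of 3.02 (SE 0.19) in BT-A6sh5, or 8.09-fold, and of -0.07 (SE 0.19) in BT-A6sh2. Between the knockdown lines PMAIP1 was 8.50-fold higher in BT-A6sh5 (log2 3.09). The BT-EV and BT-A6sh2 levels lie near the median of 23 background probe sets, which was between 3.91 and 4.28 per array. Single background probe sets ran from 1.45 to 9.44, and the median of all transcript clusters was 4.92 to 5.05. A fold computed from so low a base depends on the background correction. In RNA from a whole culture, a rise in every cell and a larger rise in some cells cannot be told apart.

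BCL2, the anti-apoptotic gene, moved in opposite directions in the knockdown lines. Its log2 levels were 6.85, 6.89, 6.91 and 6.78 in BT-EV, 6.07, 5.81, 5.55 and 5.94 in BT-A6sh5, and 7.38, 7.24, 7.39 and 7.45 in BT-A6sh2. The lines did not overlap. The highest BT-A6sh5 array lay 0.71 below the lowest BT-EV array, and the lowest BT-A6sh2 array lay 0.34 above the highest BT-EV array. The mean was 5.84 ± 0.22 (SD, n = 4) in BT-A6sh5, 6.86 ± 0.058 in BT-EV and 7.37 ± 0.087 in BT-A6sh2. BT-A6sh5 thus held 49.95% ± 7.39 of the BT-EV level (log2 fold change -1.01, SE 0.11, 2.02-fold lower) and BT-A6sh2 held 142.6% ± 8.39 (log2 0.51, SE 0.11). BT-A6sh5 was 2.88-fold below BT-A6sh2.

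SESN2 also moved in opposite directions in the knockdown lines, each opposite to that of BCL2. Its log2 levels were 8.97, 9.13, 9.02 and 9.02 in BT-EV, 9.46, 9.57, 9.36 and 9.27 in BT-A6sh5, and 8.47, 8.26, 8.85 and 8.44 in BT-A6sh2. The lines did not overlap, with gaps of 0.13 between BT-EV and BT-A6sh5 and 0.12 between BT-EV and BT-A6sh2. The mean was 9.41 ± 0.13 (SD, n = 4) in BT-A6sh5, 9.04 ± 0.069 in BT-EV and 8.50 ± 0.25 in BT-A6sh2. BT-A6sh5 held 130.3% ± 11.6 of the BT-EV level (log2 fold change 0.38, SE 0.12) and BT-A6sh2 held 70.0% ± 12.5 (log2 -0.53, SE 0.12). The knockdown lines differed 1.88-fold. The BT-A6sh2 array nearest to BT-EV was replicate 3, 1 of the 2 arrays that stood apart, and without replicates 1 and 3 the log2 fold change in BT-A6sh2 was -0.69.

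**Figure D1:**
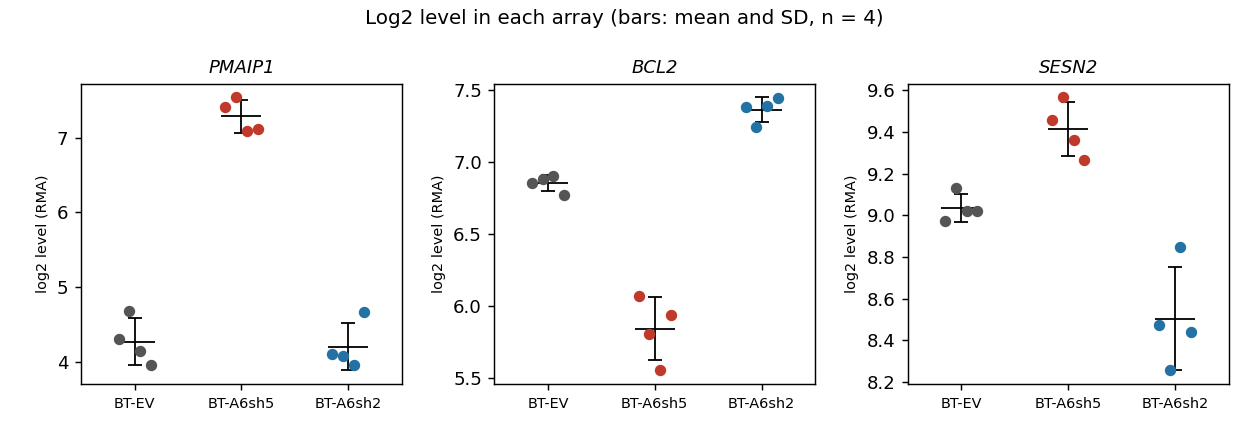
Log2 RMA level (vertical axes, which do not start at 0) of PMAIP1, BCL2 and SESN2 in each of the 12 arrays, by line, with the mean and the SD of 4 arrays. PMAIP1 is high in BT-A6sh5 alone, BCL2 falls to 5.84 in BT-A6sh5 and rises to 7.37 in BT-A6sh2, and SESN2 runs from 8.50 in BT-A6sh2 to 9.41 in BT-A6sh5.

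The order of the lines therefore differed among the 3 genes. It was BT-A6sh5 above BT-EV and BT-A6sh2, which overlapped, for PMAIP1, then BT-A6sh2 above BT-EV above BT-A6sh5 for BCL2, and the reverse of that for SESN2. All 3 genes differed between the knockdown lines with no overlap. Lines without overlap are common on these arrays and the genes were chosen for such changes, so nothing is read from their number. In BT-A6sh5, 11.4% of all transcript clusters lay above and 12.2% below every BT-EV array, in BT-A6sh2 11.2% lay above and 7.23% below, and between the knockdown lines 8.77% were higher and 11.7% lower in BT-A6sh5. With the level of the hybridization controls as a covariate, the log2 fold changes in BT-A6sh5 and BT-A6sh2 were 3.77 and 0.92 for PMAIP1, -0.74 and 0.87 for BCL2, and 0.41 and -0.49 for SESN2. That covariate does not overlap between BT-EV and either knockdown line, and it turned the direction of PMAIP1 in BT-A6sh2 only.

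The measured genes beside each of the 3 genes were examined in gene order, 5 on each side and leaving out the 3 genes themselves, a set taken by position after the other results were seen. The gene next to PMAIP1, CCBE1, which encodes a secreted protein needed for lymphatic vessel growth, rose in BT-A6sh5. CCBE1 had log2 levels of 4.91, 5.25, 4.91 and 5.02 in BT-EV, 10.16, 9.98, 9.86 and 9.92 in BT-A6sh5, and 4.60, 4.95, 4.34 and 4.31 in BT-A6sh2. Like PMAIP1 it was high in BT-A6sh5 alone, and BT-EV and BT-A6sh2 overlapped. Its log2 fold change was 4.96 (SE 0.15, 31.1-fold, limma adjusted p = 9.44e-10) in BT-A6sh5 and -0.47 (adjusted p = 0.0658) in BT-A6sh2, and the lines differed by 5.43 (adjusted p = 7.52e-10). The 9 other neighbours of PMAIP1 missed the threshold in BT-A6sh5, among them SEC11C, GRP, RAX and CPLX4 beyond CCBE1 and MC4R, RNF152, RELCH, PHLPP1 and KDSR on the other side.

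BCL2 shares 6 of its neighbours with PMAIP1, and the genes directly beside it did not pass the test. PHLPP1, a phosphatase gene on one side, had log2 fold changes of 0.20 (adjusted p = 0.227) in BT-A6sh5 and 0.09 (adjusted p = 0.554) in BT-A6sh2. KDSR, a sphingolipid synthesis gene on the other, had 0.00 (adjusted p = 0.998) and 0.11 (adjusted p = 0.459). No gene beside BCL2 fell in either line, and RNF152, a ubiquitin ligase gene, rose in BT-A6sh2 by 0.73 (adjusted p = 0.0490), a call lost in 14 of 22 alternatives.

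Beside SESN2 the neighbours were mixed. EYA3, a transcriptional coactivator and phosphatase, rose in BT-A6sh5 by 0.79 (adjusted p = 0.000202) and differed between the knockdown lines by 1.05 (adjusted p = 1.77e-05). THEMIS2, a signaling adaptor, rose in BT-A6sh5 by 0.70 (adjusted p = 0.0197) and differed by 1.01 (adjusted p = 0.00157). Like SESN2, PHACTR4, a phosphatase and actin regulator, fell in BT-A6sh2, by 0.33 (limma, adjusted p = 0.0208, lost in 7 of 22 alternatives). PHACTR4 was higher in BT-A6sh5 than in BT-A6sh2 by 0.52 (adjusted p = 0.000354). GMEB1, a DNA-binding protein, rose in BT-A6sh2 by 0.38 (adjusted p = 0.0478, lost in 16 of 22 alternatives), and ATP5IF1, the inhibitor of the mitochondrial ATP synthase and the gene next to SESN2, was lower in BT-A6sh5 than in BT-A6sh2 by 0.43 (adjusted p = 0.0190). Over the 24 distinct neighbours of the 3 genes, 3 rose and 0 fell in BT-A6sh5 (9 higher and 1 lower at an unadjusted p under 0.05), 2 rose and 1 fell in BT-A6sh2, and 4 were higher and 1 lower in BT-A6sh5 than in BT-A6sh2. Over all transcript clusters, 4.11% rose and 6.71% fell in BT-A6sh5, 5.35% rose and 3.13% fell in BT-A6sh2, and 8.16% were higher and 11.4% lower in BT-A6sh5 than in BT-A6sh2.

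**Figure D2:**
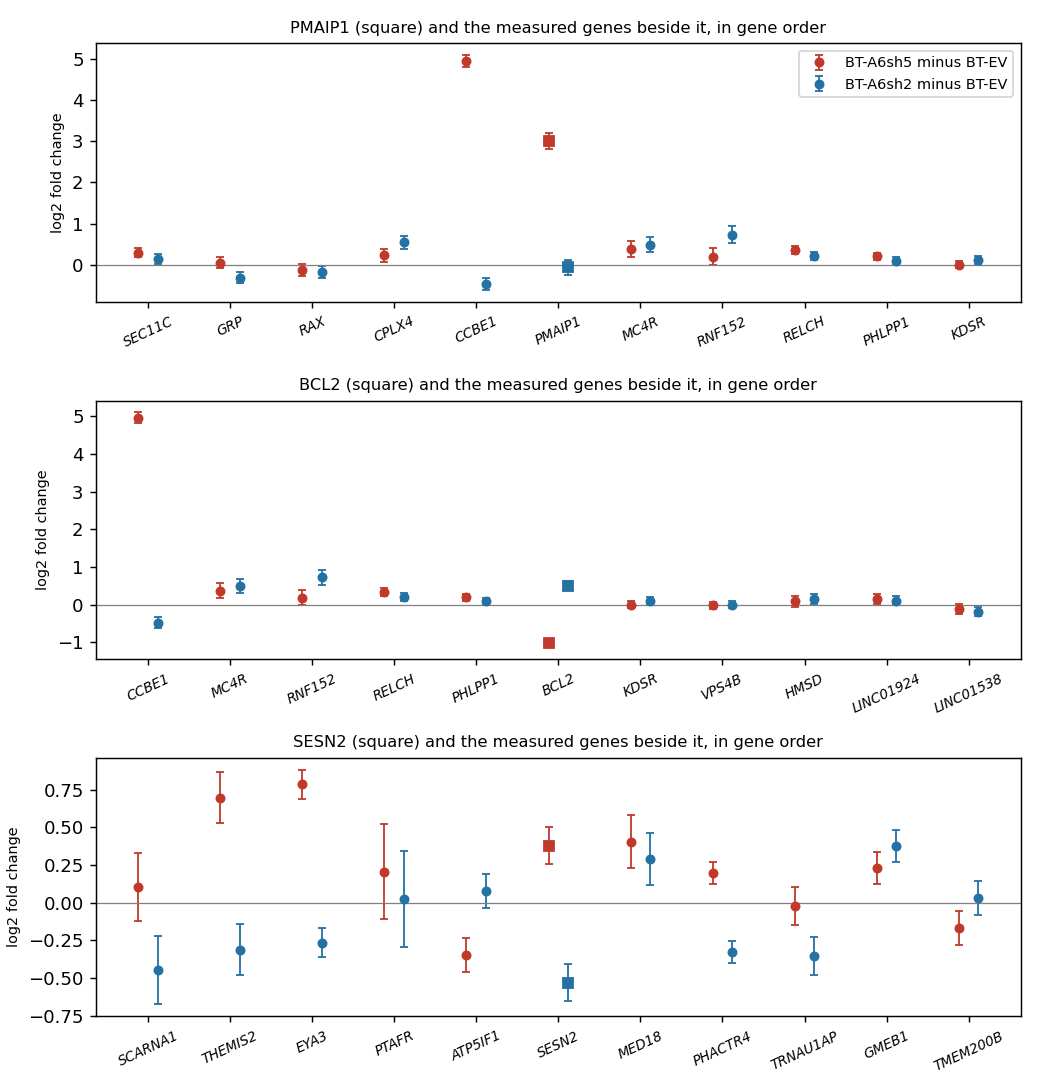
Log2 fold change against BT-EV (vertical axis) of PMAIP1, BCL2 and SESN2 (squares) and of the measured genes on each side in gene order (circles), for BT-A6sh5 and BT-A6sh2, with bars for the standard error. CCBE1, next to PMAIP1, stands at 4.96 in BT-A6sh5 and at -0.47 in BT-A6sh2, while the genes next to BCL2 stay near 0.

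The family to which PMAIP1 and BCL2 belong was taken as 22 further genes, of which 19 were measured. Apart from BAK1 and BOK none of the 19 passed the test in BT-A6sh5, where 0 rose and 2 fell (median log2 fold change -0.02, against 0.05 for all transcript clusters). At an unadjusted p under 0.05 (limma), 2 were higher and 3 lower there. In BT-A6sh2 1 rose and 0 fell (median 0.11, against 0.05), and 5 were higher and 2 lower at an unadjusted p under 0.05. Between the knockdown lines 1 was higher and 4 were lower in BT-A6sh5 (median -0.06, against -0.03). The calls made up 10.5%, 5.26% and 26.3% of the 19. Among all transcript clusters, 4.11% rose and 6.71% fell in BT-A6sh5, and 5.35% rose and 3.13% fell in BT-A6sh2. Between the knockdown lines 8.16% were higher and 11.4% lower in BT-A6sh5. With the level of the hybridization controls as a covariate, no gene of this family passed the test in either line against BT-EV, and over all 6 gene lists EDA2R, FBXO22, RRAGD and STC2 kept their calls in BT-A6sh5 and no gene kept one in BT-A6sh2.

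None of the 4 other measured anti-apoptotic genes passed the test for BT-A6sh5 (limma, 1 was higher at an unadjusted p under 0.05). BCL2L1, which encodes BCL-xL, had a log2 fold change of 0.02 there (adjusted p = 0.943) and rose by 0.41 in BT-A6sh2 (adjusted p = 0.0166), a difference between the lines of -0.39 (adjusted p = 0.00726). The rise in BT-A6sh2 was past the threshold by little and was lost without BT-EV replicate 1 or 2 (adjusted p = 0.0543 and 0.0602), and when both BT-A6sh2 replicates 1 and 3 were left out. For MCL1, the main partner of the PMAIP1 protein, the log2 fold change was 0.26 (adjusted p = 0.0730) in BT-A6sh5 and 0.15 (adjusted p = 0.249) in BT-A6sh2, both short of the threshold, and it passed in BT-A6sh5 in 5 of 22 alternatives.

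Of the 3 pore-forming effectors of the family, 2 fell in BT-A6sh5. These are the 2 of 19 family genes (10.5%) called there, a share near that of all transcript clusters. Of all 53617 transcript clusters, 37519 carried no gene symbol, and the share called among named genes was not computed. The same limit applies to the shares set beside every list. BAK1 averaged 9.11 ± 0.094 (log2, SD, n = 4) in BT-EV against 8.47 ± 0.073 in BT-A6sh5 and 9.22 ± 0.20 for BT-A6sh2, and fell in BT-A6sh5 by 0.64 (adjusted p = 0.00211). BOK, an effector less dependent on BCL2, fell there by 0.53 (adjusted p = 0.0216), a call lost without BT-EV replicate 1, 2 or 4 or BT-A6sh5 replicate 1 or 4 (adjusted p = 0.0514 to 0.0733 for BOK). BT-A6sh5 lay below BT-A6sh2 for both, BAK1 by 0.75 (adjusted p = 0.000537) and BOK by 0.86 (adjusted p = 0.000814). BAX stood at similar values in the knockdown lines, 0.32 (adjusted p = 0.0911) for BT-A6sh5 and 0.33 (adjusted p = 0.0771) for BT-A6sh2, and passed the test in BT-A6sh5 in 5 of 22 alternatives.

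The other BH3-only genes had small changes. Of 6 measured, 0 passed the test (limma) in BT-A6sh5 and 0 in BT-A6sh2, where 1 each was lower at an unadjusted p under 0.05, with log2 fold changes in BT-A6sh5 from -0.34 to 0.28. BBC3, which encodes PUMA and is the BH3-only gene most tied to p53, had -0.04 (adjusted p = 0.953), and BCL2L11, which encodes BIM, had -0.03 (adjusted p = 0.924). BIK was higher in BT-A6sh5 than in BT-A6sh2 by 0.67 (limma, adjusted p = 0.00354), the 1 family gene called in that direction. Its levels were low, with means of 4.99 in BT-A6sh5 and 4.32 in BT-A6sh2.

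**Figure D3:**
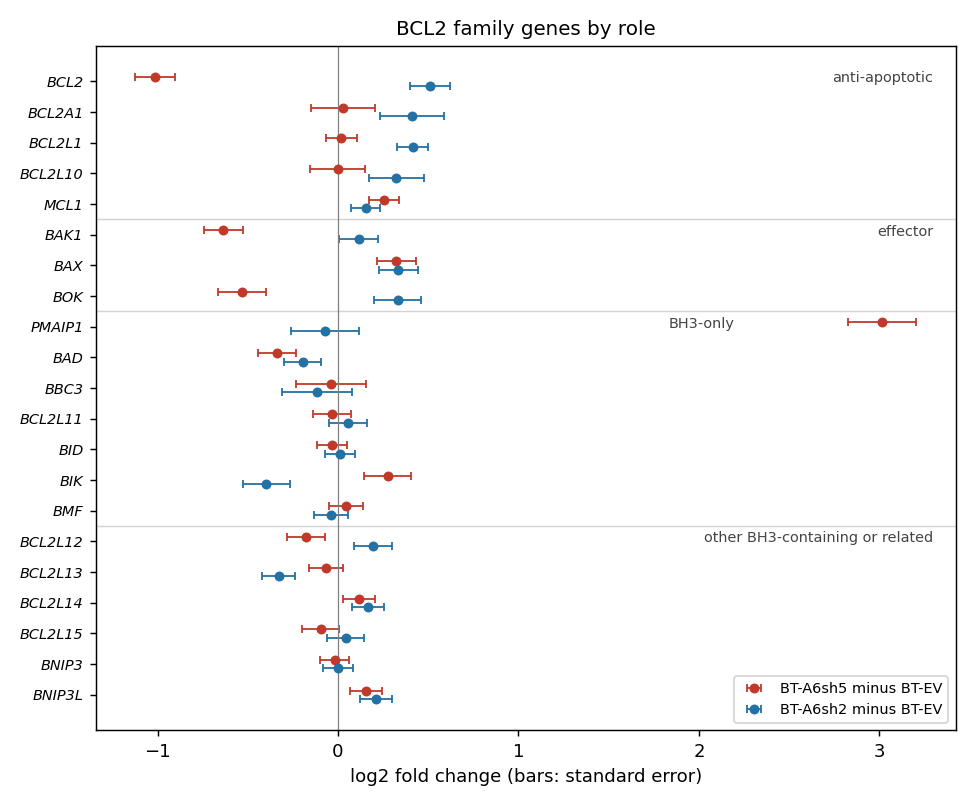
Log2 fold change (horizontal axis, bars for the standard error) of PMAIP1, BCL2 and the 19 other measured family genes in BT-A6sh5 and BT-A6sh2 against BT-EV, grouped by role. In BT-A6sh5 the other family genes run from -0.64 for BAK1 to 0.32 for BAX, and PMAIP1 (3.02) and BCL2 (-1.01), chosen by their levels, are drawn for reference.

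Downstream of the mitochondrial step, 9 of 20 listed caspases and their regulators were measured, none of them a caspase. In BT-A6sh5 2 rose and 2 fell (median -0.22), in BT-A6sh2 0 rose and 0 fell (median 0.04, with 3 higher and 0 lower at an unadjusted p under 0.05), and 2 were higher and 4 lower in BT-A6sh5 than in BT-A6sh2 (median -0.27). The calls made up 44.4%, 0% and 66.7% of the 9. Among all transcript clusters, 4.11% rose and 6.71% fell in BT-A6sh5, and 5.35% rose and 3.13% fell in BT-A6sh2. Between the knockdown lines 8.16% were higher and 11.4% lower in BT-A6sh5. The difference of these shares was not tested. CFLAR, which encodes the caspase 8 inhibitor c-FLIP, rose in BT-A6sh5 by 0.64 (adjusted p = 0.00110), and HTRA2, a mitochondrial protease released in apoptosis, rose by 0.34 (adjusted p = 0.0147). APAF1, the core of the apoptosome, fell by 0.51 (adjusted p = 0.00878) and FADD, the adaptor of death receptors, by 0.41 (adjusted p = 0.0469), the latter a call lost in 13 of 22 alternatives.

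Targets of p53 did not move together in the line where PMAIP1 was high. Of 21 measured of 36 listed, 4 rose and 5 fell in BT-A6sh5 (median 0.16), 0 rose and 2 fell in BT-A6sh2 (median -0.05, with 4 higher and 4 lower at an unadjusted p under 0.05), and 8 were higher and 6 lower in BT-A6sh5 than in BT-A6sh2 (median 0.17). The calls made up 42.9%, 9.52% and 66.7% of the 21. Among all transcript clusters, 4.11% rose and 6.71% fell in BT-A6sh5, and 5.35% rose and 3.13% fell in BT-A6sh2. Between the knockdown lines 8.16% were higher and 11.4% lower in BT-A6sh5. The list was chosen with results of these data known, and its shares were not tested against these. CDKN1A and MDM2 were not analysed here. EDA2R, a receptor of the TNF receptor family, had the pattern of PMAIP1. Its log2 levels were 4.45, 4.70, 4.90 and 4.67 in BT-EV, 8.06, 8.21, 8.11 and 8.06 in BT-A6sh5, and 3.57, 4.54, 5.37 and 5.22 in BT-A6sh2. It was high in BT-A6sh5 alone (log2 fold change 3.43, adjusted p = 1.96e-05) and in BT-A6sh2 its arrays spread on both sides of BT-EV (-0.01, adjusted p = 0.993). FBXO22, a ubiquitin ligase subunit, rose in BT-A6sh5 by 0.95 (adjusted p = 7.42e-06), and GDF15, a secreted stress factor, rose by 0.93 (adjusted p = 0.000108). CCNG1, which encodes cyclin G1, fell by 0.65 (adjusted p = 0.00492). The other falls called there (limma) were PLK2 by 0.55 (adjusted p = 0.00235), APAF1 by 0.51 (adjusted p = 0.00878), TIGAR by 0.46 (adjusted p = 0.0170) and NINJ1 by 0.32 (adjusted p = 0.0388). The remaining rise was AEN by 0.39 (adjusted p = 0.0422).

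In BT-A6sh2, where PMAIP1 did not differ from BT-EV beyond the spread and SESN2 was lower, TP53INP1, a p53-induced nuclear protein, fell by 0.61 (adjusted p = 0.00947) and RPS27L, a ribosomal protein homolog, fell by 0.37 (adjusted p = 0.0334). The RPS27L call was lost in 12 of 22 alternatives. TP53INP1 had 0.29 in BT-A6sh5 (adjusted p = 0.145) and differed between the lines by 0.90 (adjusted p = 0.000169), and RPS27L had 0.26 (adjusted p = 0.115) and differed by 0.63 (adjusted p = 0.000621), the direction of SESN2 in both cases.

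Regulators of p53 were measured for 13 of 16 listed genes, with 3 rising and 2 falling in BT-A6sh5 (median 0.21), 3 rising and 1 falling in BT-A6sh2 (median 0.00), and 1 higher and 4 lower in BT-A6sh5 than in BT-A6sh2 (median 0.10). The calls made up 38.5%, 30.8% and 38.5% of the 13. Among all transcript clusters, 4.11% rose and 6.71% fell in BT-A6sh5, and 5.35% rose and 3.13% fell in BT-A6sh2. Between the knockdown lines 8.16% were higher and 11.4% lower in BT-A6sh5. The difference of these shares was not tested. HIPK2, a kinase that phosphorylates p53 before apoptosis, ordered the lines as SESN2 did. Its log2 levels were 10.21, 10.19, 10.27 and 10.23 in BT-EV, 10.67, 10.68, 10.76 and 10.73 in BT-A6sh5, and 9.91, 9.88, 9.69 and 9.73 in BT-A6sh2. It rose in BT-A6sh5 by 0.48 (adjusted p = 0.00181), fell in BT-A6sh2 by 0.42 (adjusted p = 0.0113) and differed between the lines by 0.91 (adjusted p = 1.37e-05), with no overlap. DAPK1, a death-associated kinase, had -0.15 in BT-A6sh5 (adjusted p = 0.478) and rose in BT-A6sh2 by 0.85 (adjusted p = 0.000860). USP7, a deubiquitinase acting on p53 and its ligase, rose in both, by 0.38 (adjusted p = 0.00825) and 0.45 (adjusted p = 0.00812). ATR, a DNA damage kinase, fell in BT-A6sh5 by 0.46 (limma, adjusted p = 0.0109). EP300, an acetyltransferase, rose there by 0.38 (adjusted p = 0.0223, lost in 7 of 22 alternatives), and CREBBP, its paralog, rose in BT-A6sh2 by 0.46 (adjusted p = 0.0125).

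**Figure D4:**
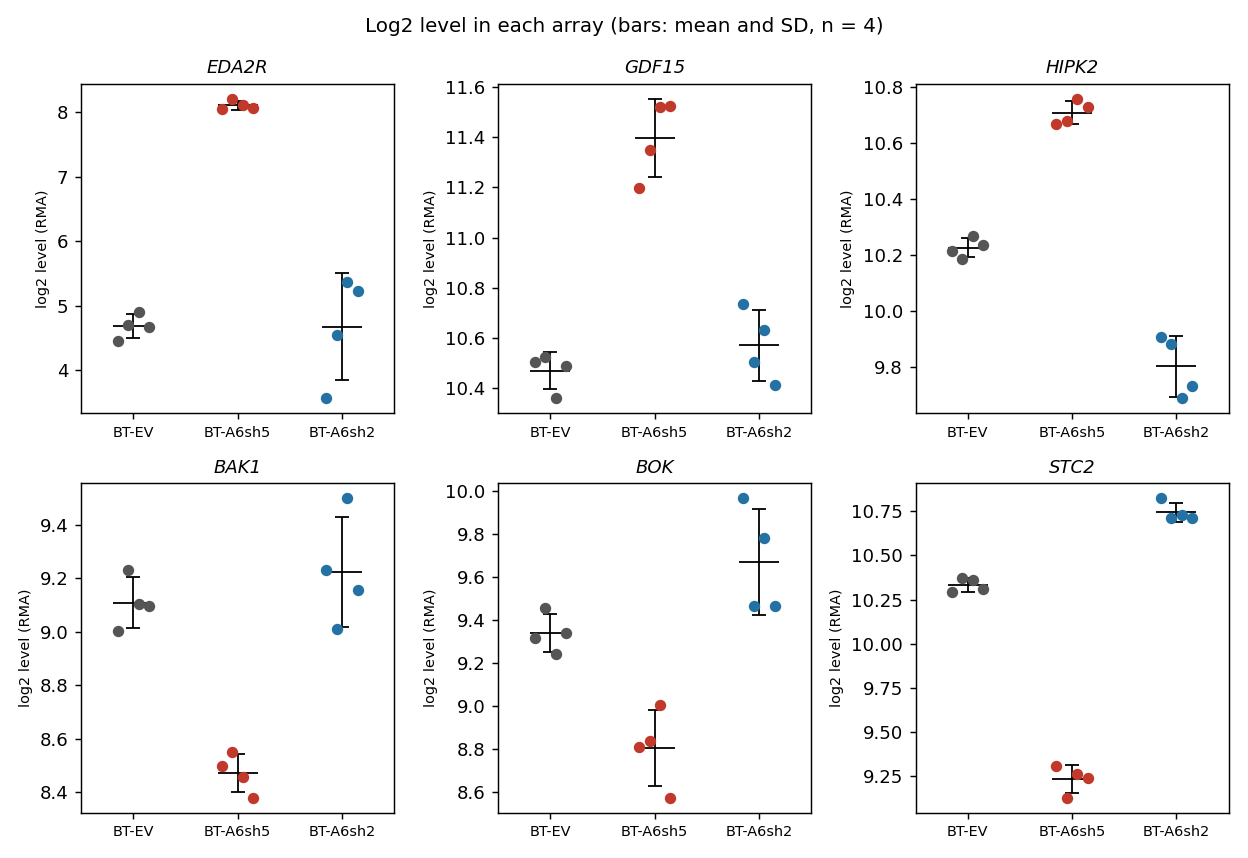
Log2 RMA level (vertical axes, which do not start at 0) of EDA2R, GDF15, HIPK2, BAK1, BOK and STC2 in each array, by line, with the mean and the SD of 4 arrays. EDA2R is high in BT-A6sh5 alone, as PMAIP1 is, and STC2 has the order of BCL2.

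For SESN2, the sestrin, GATOR and mTORC1 genes it acts with were measured for 23 of 38 listed genes. In BT-A6sh5 1 rose and 3 fell (median -0.03), in BT-A6sh2 2 rose and 0 fell (median 0.03, with 7 higher and 1 lower at an unadjusted p under 0.05), and against BT-A6sh2 1 was higher in BT-A6sh5 and 5 lower (median -0.12). The calls made up 17.4%, 8.7% and 26.1% of the 23. Among all transcript clusters, 4.11% rose and 6.71% fell in BT-A6sh5, and 5.35% rose and 3.13% fell in BT-A6sh2. Between the knockdown lines 8.16% were higher and 11.4% lower in BT-A6sh5. The difference of these shares was not tested. The other sestrins did not pass the test. SESN1 had a log2 fold change of -0.15 (limma, adjusted p = 0.808) for BT-A6sh5 and -0.05 (adjusted p = 0.918) for BT-A6sh2. SESN3 had -0.83 (adjusted p = 0.0635) and -0.59 (adjusted p = 0.163), with an SD of 0.47 in BT-A6sh5. Every BT-A6sh5 array of SESN3 lay below BT-EV, and SESN3 passed there in 6 of 21 alternatives. Over the settings other than single arrays left out, its change in BT-A6sh5 ranged from -0.85 to 0.18. RRAGD, a Rag GTPase that carries the amino acid signal to mTORC1, fell in BT-A6sh5 by 0.89 (adjusted p = 3.30e-05). NPRL2, a subunit of GATOR1, which GATOR2 opposes, fell there by 0.63 (adjusted p = 0.000981), and KEAP1, the NRF2 repressor whose degradation sestrins promote, by 0.49 (adjusted p = 0.00455). SEH1L, a subunit of GATOR2, which the SESN2 protein binds, rose in BT-A6sh2 by 0.31 (adjusted p = 0.0266, lost in 7 of 22 alternatives). TSC1, an mTORC1 inhibitor, rose in BT-A6sh5 by 0.31 (adjusted p = 0.0286, lost in 10 of 22 alternatives) and in BT-A6sh2 by 0.47 (adjusted p = 0.00842). Genes of AMPK, the kinase downstream of sestrins, were not analysed here.

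The RNA of ATF4, the other inducer of PMAIP1 and SESN2, stood at 0.20 in BT-A6sh5 on the log2 scale (limma, adjusted p = 0.211) and at 0.05 in the other line (adjusted p = 0.732). The amount and activity of the ATF4 protein were not measured. Of ATF4 and its listed targets 15 of 26 were measured, with 1 rising and 3 falling in BT-A6sh5 (median -0.11), 3 rising and 1 falling in BT-A6sh2 (median -0.10, with 3 higher and 5 lower at an unadjusted p under 0.05), and 2 higher and 3 lower in BT-A6sh5 than in BT-A6sh2 (median 0.01). The calls made up 26.7%, 26.7% and 33.3% of the 15. Among all transcript clusters, 4.11% rose and 6.71% fell in BT-A6sh5, and 5.35% rose and 3.13% fell in BT-A6sh2. Between the knockdown lines 8.16% were higher and 11.4% lower in BT-A6sh5. The difference of these shares was not tested. The core targets ATF3, TRIB3 and ASNS did not pass the test in either line (adjusted p = 0.252 to 0.772). STC2, a secreted glycoprotein, had the order of BCL2, with log2 levels of 10.29, 10.37, 10.36 and 10.31 in BT-EV, 9.31, 9.13, 9.26 and 9.24 in BT-A6sh5, and 10.82, 10.71, 10.73 and 10.71 in BT-A6sh2. It fell in BT-A6sh5 by 1.10 (adjusted p = 2.04e-06), rose in BT-A6sh2 by 0.41 (adjusted p = 0.0108) and differed between the lines by -1.51 (adjusted p = 1.13e-07). DDIT3, which encodes the stress transcription factor CHOP, fell in BT-A6sh5 by 0.40 (adjusted p = 0.00449) and rose in BT-A6sh2 by 0.45 (adjusted p = 0.00681), the directions of BCL2. A link between DDIT3 and BCL2 was not tested. VLDLR, a lipoprotein receptor, rose in BT-A6sh5 by 0.61 (limma, adjusted p = 0.00163), and ATF5, a related factor, rose in BT-A6sh2 by 0.98 (adjusted p = 0.000512). PCK2, a mitochondrial enzyme of gluconeogenesis, fell in BT-A6sh5 by 0.45 (adjusted p = 0.00176) and in BT-A6sh2 by 0.32 (adjusted p = 0.0262, lost in 8 of 22 alternatives).

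**Figure D5:**
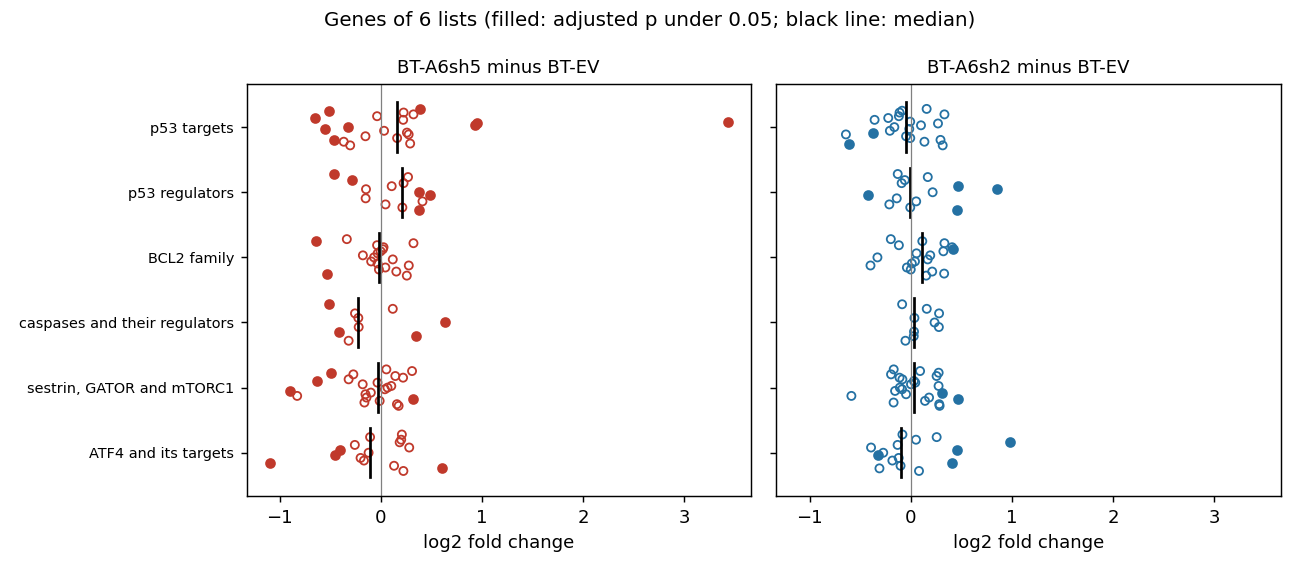
Log2 fold change against BT-EV (horizontal axis) of every measured gene of the 6 lists, with BT-A6sh5 on the left and BT-A6sh2 on the right, filled where the adjusted p was under 0.05, and a black line at the median of each list. EDA2R, at 3.43 among the p53 targets in BT-A6sh5, lies farthest from 0, and the medians lie between -0.22 and 0.21.

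Of all other named transcript clusters, those most like each of the 3 genes over the 12 arrays were taken by Pearson's r, which here is set mostly by the differences between 3 lines and is given as a description. For PMAIP1 they were KDM5C, a histone demethylase (r = 0.991), NID1, a basement membrane protein (r = 0.988), and DPYD, the enzyme that degrades pyrimidines (r = 0.986). KDM5C averaged 7.08 ± 0.072 (log2, SD, n = 4) in BT-A6sh5, against 5.74 ± 0.13 in BT-EV and 5.65 ± 0.17 for BT-A6sh2. For BCL2 they were DBR1, the enzyme that opens intron lariats (r = 0.994), ITFG2, a subunit of the KICSTOR complex (r = 0.993), and GALNT12, which starts O-glycosylation (r = 0.992). GALNT12 averaged 5.50 ± 0.15 in BT-A6sh5, against 6.58 ± 0.063 in BT-EV and 7.09 ± 0.086 for BT-A6sh2. For SESN2 they were GLMP, a lysosomal membrane protein (r = 0.987), DHCR7, the last enzyme of cholesterol synthesis (r = 0.979), and GGT7, a gamma-glutamyltransferase family member (r = 0.974). DHCR7 averaged 11.15 ± 0.070 in BT-A6sh5, against 10.85 ± 0.016 in BT-EV and 10.35 ± 0.12 for BT-A6sh2.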

How the data were processed

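Total RNA of 3 BT-549 lines was amplified (NuGEN Ovation Pico) and hybridized to 12 Affymetrix Human Gene 2.0 ST arrays, 4 per line. The authors deposited log2 levels made with Affymetrix Expression Console by RMA, which corrects background, quantile-normalizes and summarizes probes, so low levels are compressed. The submitters' notes also name affy and limma. All 12 value columns were matched to samples, with 0 columns left without one. Genes were named from the platform annotation, taking for each the transcript cluster with the highest mean.

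One limma fit (version 3.58.1, R 4.3.3) of 3 group means over 53617 transcript clusters gave moderated two-sided tests (lmFit, eBayes), with Benjamini-Hochberg adjustment within each of 3 comparisons and calls at an adjusted p under 0.05. The p-values measure only the spread between these arrays, whose number limits the precision. That spread is shared by the 3 lines, though it was largest in BT-A6sh2. With each pair of lines fitted alone, the called transcript clusters went from 5800 to 9058 in BT-A6sh5 and from 4551 to 1608 in BT-A6sh2. PMAIP1, BCL2 and SESN2 have no test. Genes and lists were chosen with earlier results of these data known. The text names, per list and line, up to 4 called genes with the largest change, core pathway genes whatever their change, the 3 genes most correlated with each of PMAIP1, BCL2 and SESN2, and neighbours and further genes chosen after their values were seen. The fit was tested on simulated data. Alternatives were 10 other settings and each of the 12 arrays left out. Tables and figures used Python 3.11.15, pandas 2.3.3 and matplotlib 3.10.9.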

Additional observations from a re-analysis of the deposited data

Results flagged for a closer look

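BCL2 and SESN2 moved in opposite directions in the knockdown lines in every array, and the difference between BT-A6sh5 and BT-A6sh2, -1.5237 for BCL2 and 0.9091 for SESN2 on the log2 scale, was not tested because these genes were chosen by their levels. Of 39 genes of the lists named for the size of a called change or as core pathway genes, 25 differed between the knockdown lines by the fit's own contrast (limma, adjusted p under 0.05). Over all transcript clusters 8.16% were higher and 11.4% lower in BT-A6sh5, but most of the 39 were named for a large called change, so nothing is read from their share. Among the p53 targets the log2 differences of BT-A6sh5 from BT-A6sh2 were 3.4349 for EDA2R, 0.9026 for TP53INP1, 0.8252 for GDF15, 0.6812 for FBXO22, 0.6277 for RPS27L, -0.4233 for APAF1 and -0.4291 for CCNG1. The CCNG1 call was lost in 9 of 22 alternatives, and its arrays overlapped between the knockdown lines. Among the p53 regulators the differences were 0.9078 for HIPK2, -0.3354 for ATR, -0.3575 for CREBBP and -0.9999 for DAPK1, and the ATR call was lost in 14 of 22 alternatives. In the BCL2 family they were -0.394 for BCL2L1, -0.7512 for BAK1 and -0.8613 for BOK, and among the caspase regulators 0.4016 for CFLAR, 0.3146 for HTRA2 and -0.4423 for FADD (lost in 8 of 22 alternatives). Among the genes around SESN2 they were -0.4049 for SEH1L, -0.6602 for NPRL2, -0.7399 for RRAGD and -0.77 for KEAP1, and among the ATF4 targets 0.9171 for VLDLR, -0.7958 for ATF5, -0.853 for DDIT3 and -1.5104 for STC2. Of 7 named neighbours 5 differed, CCBE1 by 5.4302, EYA3 by 1.0547, THEMIS2 by 1.0104, PHACTR4 by 0.5237 and ATP5IF1 by -0.4258.

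In 8 of 150 pairs of a gene and a line, 1 array lay far from the other 3, where chance gives about 1 in 20. In BT-A6sh2, ATF5 had a log2 level of 10.1299 in replicate 1, and in replicate 3 DAPK1 had 5.5391, RPS27L 4.9743 and ATP5IF1 6.6181. In BT-EV, TP53INP1 had 7.6236 in replicate 1, GMEB1 8.3969 in replicate 2, BBC3 6.3174 in replicate 3 and MCL1 9.687 in replicate 4. None of the 8 was an array of PMAIP1, BCL2 or SESN2.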

How the results depend on the processing

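No called result reversed. PMAIP1 in BT-A6sh2, where it overlaps BT-EV, changed sign in some settings. Values are given in the order BT-A6sh5 against BT-EV, BT-A6sh2 against BT-EV and BT-A6sh5 against BT-A6sh2 unless named, and the cause of a change was not tested. The reported counts of called transcript clusters were 5800, 4551 and 10477, and of called genes 9, 2 and 14 p53 targets, 5, 4 and 5 p53 regulators, 2, 1 and 5 of the BCL2 family, 4, 0 and 6 caspase regulators, 4, 2 and 6 sestrin, GATOR and mTORC1 genes, and 4, 4 and 5 ATF4 targets. With the hybridization controls as a covariate, the first 2 comparisons gave 3.77 and 0.92 for PMAIP1, -0.74 and 0.87 for BCL2, 930 and 4 transcript clusters, 2 and 0 p53 targets, 0 and 0 p53 regulators (3 between the knockdown lines), 0 and 0 of the BCL2 family, 0 caspase regulators in BT-A6sh5 (3 between the knockdown lines), 1 and 0 sestrin, GATOR and mTORC1 genes and 1 and 0 ATF4 targets. With each pair of lines fitted alone, there were 9058, 1608 and 5541 transcript clusters, 1 p53 target in BT-A6sh2, 2 p53 regulators between the knockdown lines, 5 and 0 of the BCL2 family, 2 caspase regulators between the knockdown lines, and 7 and 1 sestrin, GATOR and mTORC1 genes. With array weights there were 9908 and 3013 transcript clusters, 15 and 1 p53 targets, 2 p53 regulators and 3 caspase regulators between the knockdown lines, and in BT-A6sh5 5 of the BCL2 family, 9 sestrin, GATOR and mTORC1 genes and 7 ATF4 targets. Requiring a 2-fold change left 1037, 757 and 1775 transcript clusters. Repeated quantile normalization gave 2692 transcript clusters, 1 p53 target and 2 of the BCL2 family in BT-A6sh2. Without BT-A6sh2 replicates 1 and 3, there were 2368 transcript clusters in BT-A6sh2, 5 and 0 of the BCL2 family, 8 sestrin, GATOR and mTORC1 genes in BT-A6sh5, and 3 p53 regulators and 2 caspase regulators between the knockdown lines. With only the transcript clusters above the median, there were 14 and 5 p53 targets, 5 and 3 of the BCL2 family, 1 caspase regulator in BT-A6sh2 and 7 and 5 sestrin, GATOR and mTORC1 genes. A trended and robust prior gave 4 p53 targets in BT-A6sh2, 5 and 3 of the BCL2 family, 1 caspase regulator in BT-A6sh2 and 7 and 5 sestrin, GATOR and mTORC1 genes. Median centring gave 1 caspase regulator and 4 sestrin, GATOR and mTORC1 genes in BT-A6sh2.

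The replicate numbers did not pair the arrays. Deviations of same-numbered arrays correlated at -0.0764 to 0.0497, and 4 of 12 arrays matched best an array of their own number. With the replicate block there were 2327 transcript clusters, 1 p53 target and 1 sestrin, GATOR and mTORC1 gene in BT-A6sh2, and 3 p53 regulators in BT-A6sh5 and 3 between the knockdown lines.

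With 1 array left out at a time, PMAIP1 ranged over 2.91 to 3.15, -0.22 to 0.07 and 3.00 to 3.24, BCL2 over -1.09 to -0.92, 0.48 to 0.55 and -1.60 to -1.43, and SESN2 over 0.33 to 0.43, -0.65 to -0.45 and 0.83 to 1.02. The called transcript clusters ranged over 4299 to 6874, 1483 to 9093 and 7936 to 13644. In BT-A6sh2 they were 1483 to 1674 without any 1 BT-EV array, 9093 when BT-A6sh2 replicate 2 was left out and 2979 when replicate 3 was. The p53 targets ranged over 6 to 10, 1 to 3 and 12 to 15, the p53 regulators over 3 to 6, 4 to 4 and 3 to 5, the BCL2 family over 1 to 3, 0 to 2 and 4 to 6, the caspase regulators over 2 to 4, 0 to 0 and 4 to 6, the sestrin, GATOR and mTORC1 genes over 3 to 6, 1 to 3 and 6 to 6, and the ATF4 targets over 4 to 4, 3 to 6 and 5 to 6. Among single genes, the calls of EDA2R, FBXO22, RRAGD, STC2 and CCBE1 in BT-A6sh5 held in all 22 alternatives. Calls lost most often were GMEB1 in BT-A6sh2 (16 of 22), RNF152 in BT-A6sh2 (14), ATR between the knockdown lines (14), FADD in BT-A6sh5 (13) and RPS27L in BT-A6sh2 (12). Next were TSC1 in BT-A6sh5 (10), CCNG1 (9) and FADD (8) between the knockdown lines, and PCK2 in BT-A6sh2 (8). SEH1L and PHACTR4 in BT-A6sh2 and EP300 in BT-A6sh5 lost theirs in 7 each. Low levels in BT-EV and BT-A6sh2, near the background median for PMAIP1, limit the fold changes of PMAIP1, CCBE1 and EDA2R.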
